A study of Homo sapiens with 15 samples.

Results

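Cytosolic ribosomal protein genes encode the protein part of the ribosomes that translate messenger RNA in the cytoplasm. They were taken here as the rows of the deposited table whose symbol is RPL or RPS followed by a number and an optional A, plus RPS4X, RPLP0, RPLP1, RPLP2 and RPSA. The rule found 77 of 26364 gene rows, 46 of the large (60S) subunit and 31 of the small (40S) subunit, and used no measured value. Levels are in TPM, which divides reads by transcript length and library total, and the test took genes averaging 1 TPM or more over the 15 libraries. This filter kept 12002 genes, 76 of them ribosomal protein genes, and left out RPL21, at a mean of 0.0551 TPM.

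The cells were RPMI-8226, a widely used line grown from a human myeloma, a cancer of plasma cells, in which messenger RNA was sequenced. The line was labelled WT, but the genotype label of the treated samples repeats the compound's name and was read as the treatment. The cells were given DMSO (the 0 h group) or 100 nM KB528 for 1, 3, 6 or 24 h. KB528 is a compound that inhibits the acetyltransferase activity of p300. Each of the 5 groups had 3 libraries. All groups therefore share 1 cell line and its medium, and how long the controls stood in DMSO is not given. No DMSO library was labelled with a later hour. Effects of KB528 and of time since the 0 h group therefore cannot be told apart in any comparison. No label says that replicates are separate cultures. The p-values thus reflect only how much libraries of a group differ, a spread shared over the 5 groups, which could be technical variation. The 10 plasma cell markers examined had DMSO means from 1.66 TPM (SLAMF7) to 4288 TPM (JCHAIN). Of 10 markers of other cell types, 9 had DMSO means of at most 1.81 TPM, and EPCAM, an epithelial adhesion gene, had 113 TPM.

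A ribosome holds its proteins in fixed proportion, so their genes are usually transcribed in a coordinated way and at high level. Most of their messenger RNAs start with a cytosine followed by a run of pyrimidines, the 5' terminal oligopyrimidine (TOP) motif, through which mTORC1 and LARP1 control their translation. Antibody-secreting plasma cells carry a heavy translation load, and MYC is a known activator of ribosome production. p300 acetylates histones and other proteins at enhancers and promoters.

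The start regions of 8 genes that the results turn on are given to show their pyrimidine runs. In each, 25 bases before and 25 bases from the RefSeq start (build GRCh38.p14) are printed on the gene's own strand. Capitals mark the longest pyrimidine run that reaches within 10 bases of the start. Where a gene had several RefSeq starts, the start with the longest run was printed, so the runs shown were chosen for their length.
RPLP1: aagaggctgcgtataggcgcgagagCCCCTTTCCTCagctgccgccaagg
RPL7A: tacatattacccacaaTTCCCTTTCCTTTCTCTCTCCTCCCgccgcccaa
RPL10: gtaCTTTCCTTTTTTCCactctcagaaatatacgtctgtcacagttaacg
RPL3: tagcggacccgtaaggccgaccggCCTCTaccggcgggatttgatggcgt
RPL13A: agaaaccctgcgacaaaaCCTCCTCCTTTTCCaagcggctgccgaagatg
RPL36A: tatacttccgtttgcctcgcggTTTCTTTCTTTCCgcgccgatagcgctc
RPS26: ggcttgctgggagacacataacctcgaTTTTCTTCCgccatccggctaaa
RPS28: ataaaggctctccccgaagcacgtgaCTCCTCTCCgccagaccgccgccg
In this order they lie at chr15:69452793-69452842 (plus strand), chr9:133348193-133348242 (plus), chrX:154398040-154398089 (plus), chr22:39319599-39319648 (minus), chr19:49487583-49487632 (plus), chrX:101390986-101391035 (plus), chr12:56041893-56041942 (plus) and chr19:8321471-8321520 (plus). RPL3 has the shortest run of the 8, at 5 bases, and RPL7A the longest, at 25. The annotated start is not a cytosine in RPL10, RPS26 and RPS28, and the run of RPL10 ends before it.

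RefSeq start windows of 300 bases were found for 62 of the 77 genes, 77 windows in all. A pyrimidine run of at least 8 bases near the start was present in 74.0% of these windows, against 15.2% of all 35116 windows. A cytosine stood at the annotated start in 66.2%, against 14.7% of all windows. Of the motifs searched on both strands, TCTCGCGA was found in 16.9% of the windows against 1.15%, CCGGAAG, the core bound by ETS factors such as GABPA, in 33.8% against 10.3%, and CTTTCC in 48.1% against 26.3%. GGGCGG, an SP1-type GC box, was found in 54.5% against 45.0%, and CACGTG, the E-box bound by MYC, in 5.19% against 7.26%. CTTTCC can lie within the pyrimidine run, as it does in RPL10. A match is a description of the letters and not evidence of binding.

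The ribosomal protein genes were among the most abundant transcripts of these cells. In DMSO their summed TPM was 19.5% ± 1.26 (SD, n = 3) of the whole table, which includes spike-in RNA, and they made up 56 of the 100 genes with the highest TPM. Their median level was 2156 TPM, against 15.9 TPM over all genes tested. RPLP1, an acidic protein of the ribosomal stalk, was the gene with the highest level of all in DMSO, at 15444, 15847 and 13614 TPM in the 3 libraries. It was followed among the ribosomal protein genes by RPL7A (7036 TPM ± 206) and the stalk base protein RPLP0 (6589 TPM ± 330, both SD, n = 3). The 10 highest genes held 34.0% of the summed level.

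Levels differed widely between the genes. In DMSO, 56 genes were above 1000 TPM, 16 between 100 and 1000 TPM, and 5 below 100 TPM. The low ones included RPL17 (46.2 TPM), RPS10 (21.5), RPL36A (7.96) and RPL21 (0.0993). Ribosomal protein genes have many processed pseudogenes, and the table also holds read-through rows that overlap RPL17, RPS10 and RPL36A, so levels of these genes in particular are uncertain. Each of these 3 read-through rows had a DMSO mean of at most 0.171 TPM. The sources used here do not say how reads shared between such rows were counted.

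The summed level of the ribosomal protein genes had a lower mean in every treated group, but the treated and DMSO libraries overlapped. It was 202619, 202136 and 180477 TPM in the 3 DMSO libraries. After 1 h of KB528 it was 185751, 181295 and 176752 TPM, a difference of -7.08% between means, and after 3 h it was 179098, 198951 and 173014 TPM, -5.84% from DMSO. After 6 h it was 178451, 186474 and 184162 TPM, -6.18% from DMSO, and after 24 h it was 180904, 186336 and 180900 TPM, -6.34% from DMSO. At every time at least 1 treated library lay above the lowest DMSO library, and no score over the set was tested. In bulk RNA, fewer cells with these transcripts and less of them per cell cannot be told apart.

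**Figure D1:**
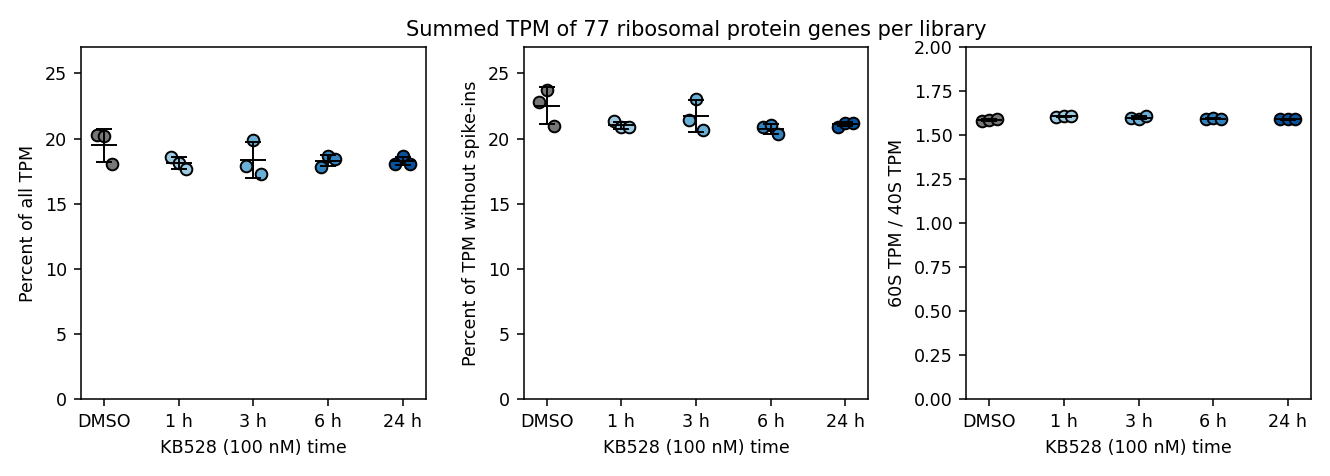
Summed TPM of the 77 ribosomal protein genes as a percent of all TPM (left), as a percent of TPM without the spike-in rows (middle), and the ratio of summed 60S to summed 40S TPM (right), against time in KB528. Points are libraries and bars the mean ± SD of 3; DMSO averages 19.5% of all TPM and every treated group overlaps it in the left and middle plots.

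The 2 subunits stayed in nearly the same ratio. The ratio of summed 60S to summed 40S TPM was 1.59 ± 0.00684 in DMSO and 1.61 ± 0.00487, 1.60 ± 0.00924, 1.60 ± 0.00299 and 1.59 ± 0.00192 after 1, 3, 6 and 24 h of KB528 (SD, n = 3 each). Only the 1 h libraries all lay above the 3 DMSO libraries, by 1.34% on average. The median log2 fold change, on the log2(TPM + 1) scale, was -0.092, -0.078, -0.076 and -0.074 for the 45 tested 60S genes and -0.12, -0.096, -0.087 and -0.094 for the 31 40S genes at 1, 3, 6 and 24 h.

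Single libraries stood apart in the level of the whole set, and this bears on every comparison with DMSO. In DMSO replicate 3, 74 of 76 ribosomal protein genes lay below both other DMSO libraries, as did 16.7% of all genes tested. Of all genes, 59.8% lay above both others there. In replicate 2 of the 3 h group, 72 of 76 lay above both other libraries, as did 27.5% of all genes, while 53.2% lay below both. The heat map of levels by library shows DMSO replicate 3 and 3 h replicate 2 as near-uniform columns. DMSO replicate 2 stood apart over all genes, with 73.75% below both other DMSO libraries, against 1 of the 76. Other groups held such libraries as well. In 3 h replicate 3, 65 of the 76 lay below both others, against 17.9% of all genes. In 6 h replicate 1, 61 lay below both, as did 61.2% of all genes. In 24 h replicate 2, 62 lay above both, and in 1 h replicate 1, 57 did, against 38.4% and 31.3% of all genes. The shifts were thus not confined to the ribosomal protein genes. Much of the table moved the opposite way in DMSO replicate 3 and 3 h replicate 2, and the same way in 6 h replicate 1. Spike-in RNA took 9.35% to 16.6% of the TPM of a library. Its share did not separate any treated group from DMSO, and whether it bears on the shifts of these libraries was not tested.

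**Figure D2:**
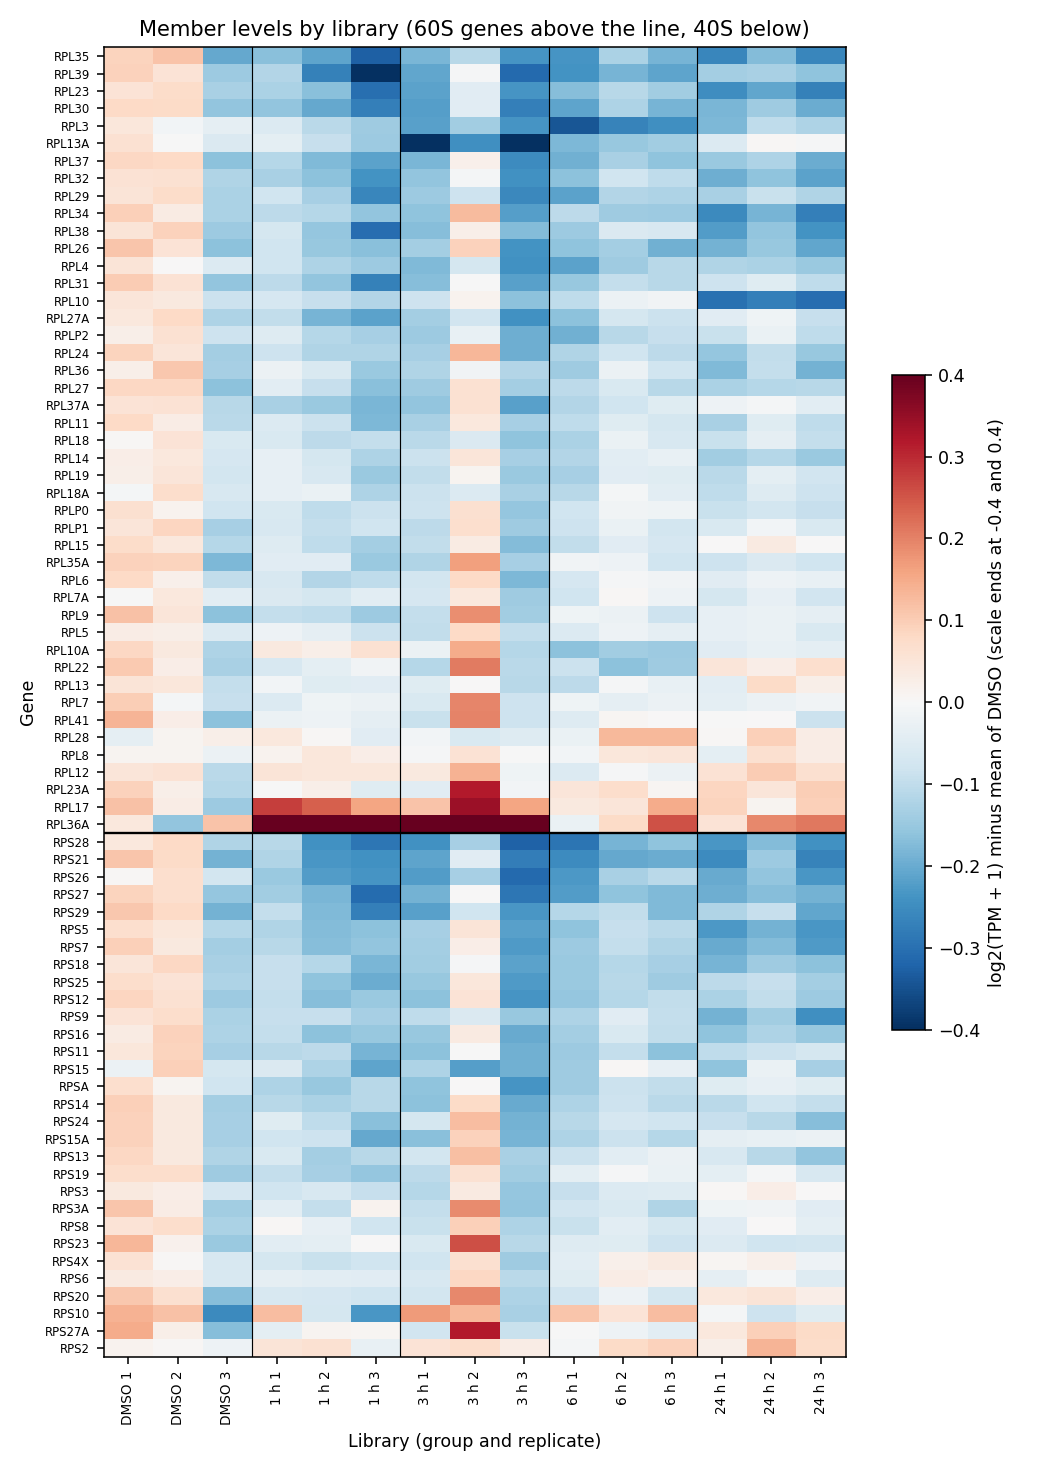
Level of 75 of the 76 tested ribosomal protein genes (rows) in each of the 15 libraries (columns), as log2(TPM + 1) minus the DMSO mean of that gene; 60S genes are above the horizontal line and 40S genes below, each ordered by mean difference. DMSO replicate 3 is blue in nearly every row and 3 h replicate 2 is redder than its neighbours, while RPL36A and RPL13A differ from the genes around them at 1 to 3 h and at 3 h.

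Fold changes were small and closely grouped. The median over the 76 genes took the values -0.10, -0.079, -0.083 and -0.076 at 1, 3, 6 and 24 h, against 0.043, -0.042, 0.12 and 0.23 over all genes tested. Within 0.3 log2 units of 0 lay 75, 74, 76 and 76 of the 76 genes, against 86.8%, 63.4%, 50.7% and 49.6% of all genes tested. The interquartile range of the fold changes, which does not depend on a shift common to all genes, was 0.086, 0.096, 0.094 and 0.12 for the ribosomal protein genes. Over all genes it was 0.22, 0.42, 0.54 and 0.46. A narrow range was not particular to the ribosomal protein genes. For 20 translation factors with TOP transcripts it was 0.16, 0.16, 0.14 and 0.15, with medians of 0.0093, -0.034, -0.033 and -0.021. The 6 h comparison showed the largest ratio of these ranges against DMSO, at 5.79.

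**Figure D3:**
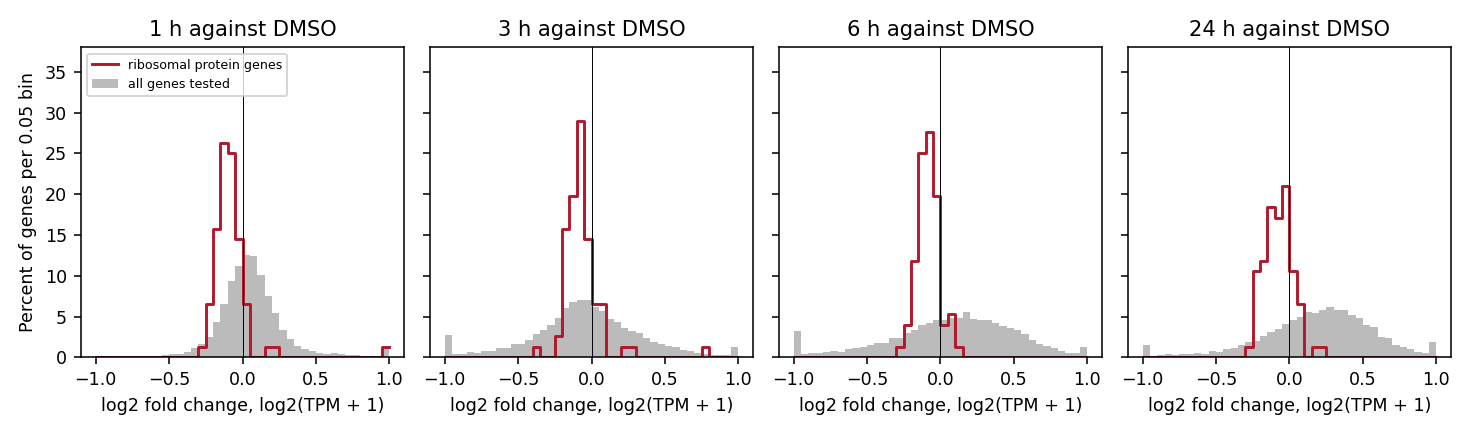
Distribution of log2 fold changes against DMSO at 1, 3, 6 and 24 h, in percent of genes per bin of 0.05 (the end bins also hold all values beyond 1 log2 unit). The grey bars, all 12002 genes tested, have an interquartile range of 0.22 at 1 h and are widest at 6 h, at 0.54, while that of the red line, the 76 ribosomal protein genes, is 0.086 to 0.12.

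By limma's moderated test on log2(TPM + 1), with Benjamini-Hochberg adjustment over all 12002 genes, a minority of the genes was called at an adjusted p under 0.05. At 1 h 2 genes were higher and 9 lower, which is 14.5% of 76 against 22.6% of all genes tested. At 3 h 2 were higher and 16 lower (23.7% against 56.9%). At 6 h 0 were higher and 16 lower (21.1% against 68.9%), and at 24 h 0 were higher and 21 lower (27.6% against 71.4%). The lower calls alone were 11.8%, 21.1%, 21.1% and 27.6% of the ribosomal protein genes, against 7.57%, 32.0%, 24.5% and 15.2% of all genes. All 3 treated libraries lay below all 3 DMSO libraries for 11, 6, 11 and 15 genes, against 13.5%, 30.5%, 24.1% and 15.4% of all genes. The 4 comparisons share the DMSO libraries, and 41 genes were called at no time. With the replicate number as a block the calls numbered 21, 26, 21 and 24 at 1, 3, 6 and 24 h, against 24.4%, 57.9%, 69.9% and 72.0% of all genes.

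These counts followed DMSO replicate 3 and the scaling. Without that library 42, 40, 42 and 41 genes were called lower at 1, 3, 6 and 24 h, against 8.52%, 28.7%, 23.0% and 14.3% of all genes. Without DMSO replicate 1 the numbers were 1, 6, 4 and 11, against 4.42%, 27.1%, 22.1% and 13.4% of all genes. Without replicate 2 they were 0, 5, 4 and 11, against 7.30%, 35.9%, 25.8% and 16.4%. At 3 h 46 were called lower without replicate 2 of that group, against 29.9% of all genes. With median-ratio scaling, in which the median ratio over genes rather than the total TPM sets each library's level, 65 of 76 were lower at 6 h (38.2% of all genes) and 64 at 24 h (29.0% of all genes), with medians of -0.25 and -0.26. With spike-in scaling limma called 0 at either time, against 8.29% of all genes lower at 6 h and 5.47% at 24 h, and the median was 0.11 at 6 h. The sign of the median at 6 h therefore differed between scalings. Per unit of spike-in TPM, the summed level was 1.23, 1.62 and 1.97 in the 6 h libraries, against 1.79, 1.36 and 1.30 in DMSO. These overlap, so no direction is shown on the spike-in scale.

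Consecutive times were also compared, where the DMSO libraries enter the estimate of the spread and not the difference. From 1 to 3 h 0 were higher and 1 lower, against 47.0% of all genes called. From 3 to 6 h 2 were higher and 2 lower, against 56.0%, and from 6 to 24 h 3 were higher and 1 lower, against 67.0%. The last count depended on the fit. It was 20 with only the 6 and 24 h libraries in the fit (72.2% of all genes) and 39 with a correction for transcript length (74.8%). The medians were 0.023, -0.0042 and -0.0020. In the F test over the 4 comparisons with DMSO, 16 of 76 passed (21.1%), against 93.6% of all genes.

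**Figure D4:**
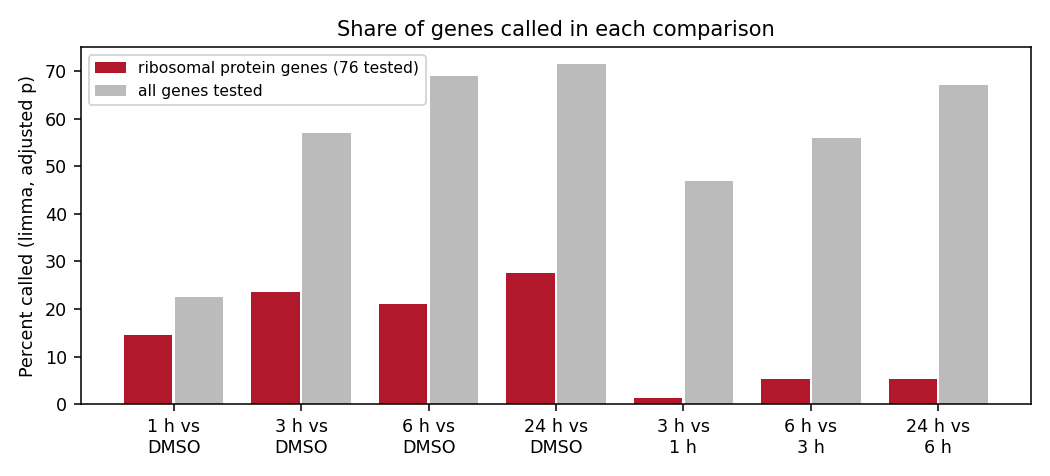
Percent of genes called by limma in each comparison, for the 76 tested ribosomal protein genes (red) and for all 12002 genes tested (grey). The red bars run from 1.32% (3 h against 1 h) to 27.6% (24 h against DMSO) and lie below the grey bars in all 7 comparisons.

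Single genes left the group at particular times, most clearly RPL36A at 1 and 3 h, RPL13A at 3 h, RPL3 at 6 h and RPL10 at 24 h. These 4 are 60S proteins.

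RPL13A, whose gene also hosts small nucleolar RNAs in its introns, was at 210, 201 and 193 TPM in DMSO and at 196, 189 and 182 TPM at 1 h. It was at 150.0, 170 and 146 TPM at 3 h, at 178, 181 and 182 TPM at 6 h and at 194, 202 and 200.4 TPM at 24 h. All 3 h libraries lay below every library of the other 4 groups, and the 24 h libraries lay within the range of DMSO. The log2 fold change was -0.38 (SE 0.052) at 3 h, with an adjusted p of 1.8e-05 by limma, and -0.16 at 6 h (adjusted p = 0.014). From 1 to 3 h it fell by 0.28 (adjusted p = 0.00036), from 3 to 6 h it rose by 0.22 (adjusted p = 0.0022) and from 6 to 24 h by 0.14 (adjusted p = 0.027). The 3 h call held in all 18 alternatives tried, while at 6 h the value with spike-in scaling was 0.032.

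RPL10, an X-linked gene whose protein joins the large subunit late in its assembly, was called at 24 h and not before. It was at 1821, 1810.5 and 1660.3 TPM in DMSO, and its 9 libraries at 1, 3 and 6 h lay between 1573 and 1779.5 TPM. At 24 h it was at 1434, 1459 and 1427 TPM, below every other library. The log2 fold change at 24 h was -0.29 (SE 0.047, adjusted p = 5.3e-05 by limma) against DMSO and -0.25 (adjusted p = 0.00025) against 6 h. At 1, 3 and 6 h it was -0.092, -0.078 and -0.046, not called. With spike-in scaling the 24 h value was -0.31 and was not called.

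RPL3, a large core protein near the peptidyl transferase centre, was lowest at 6 h. It was at 3252, 3129 and 3074 TPM in DMSO, at 2711, 2862 and 2674 TPM at 3 h, at 2485, 2618 and 2655 TPM at 6 h and at 2783, 2934 and 2894 TPM at 24 h. The 3, 6 and 24 h libraries all lay below DMSO, and the 24 h libraries all lay above those of 6 h. The log2 fold changes were -0.20 (SE 0.040, adjusted p = 0.00070), -0.29 (adjusted p = 1.6e-05) and -0.13 (adjusted p = 0.0077) at 3, 6 and 24 h by limma. The rise from 6 to 24 h was 0.15 (adjusted p = 0.0040). With spike-in scaling none of the 3 calls against DMSO held, and the 6 h value was -0.096.

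RPL36A, a 60S protein near the exit site for transfer RNA, had a low level that was higher at the early times. It was at 8.21, 7.0 and 8.68 TPM in DMSO, at 15.6, 16.1 and 17.4 TPM at 1 h and at 13.9, 14.1 and 15.2 TPM at 3 h. At 6 h it was at 7.78, 8.42 and 9.67 TPM and at 24 h at 8.28, 9.21 and 9.33 TPM. The 1 and 3 h libraries lay above all others, and the 6 and 24 h libraries overlapped DMSO. The log2 fold changes were 0.96 (SE 0.084, adjusted p = 8.5e-07) at 1 h and 0.78 (adjusted p = 1.4e-06) at 3 h by limma, with a fall of 0.68 from 3 to 6 h (adjusted p = 8.3e-06). Both calls held in all 18 alternatives tried. Its autosomal copy RPL36AL, which lies outside the rule, was at 405 TPM in DMSO and was lower at 24 h (-0.47, adjusted p = 6.3e-06). The 2 copies encode near-identical proteins, so reads assigned to either are uncertain.

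RPL17, at 46.2 TPM in DMSO, was the only other ribosomal protein gene called higher against DMSO, by 0.23 at 1 h (adjusted p = 0.030) and 0.20 at 3 h (adjusted p = 0.020) with limma. Its libraries were at 50.1, 47.0 and 41.5 TPM in DMSO, 56.1, 54.6 and 51.6 TPM at 1 h and 49.98, 58.7 and 51.5 TPM at 3 h. The 1 h libraries lay above DMSO and the 3 h libraries overlapped it. Neither call held without DMSO replicate 3 (0.15 and 0.13).

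Called lower at all 4 times were RPL30, RPL35, RPS26 and RPS28. RPS26, a 40S protein at the exit of the messenger RNA channel, was at 1409, 1472 and 1336 TPM in DMSO, and its 12 treated libraries lay between 1132 and 1304 TPM, below all of DMSO. Its log2 fold changes were -0.20, -0.22, -0.16 and -0.20 (SE 0.050, adjusted p from 0.0015 to 0.012 by limma). RPS28 was at 4695, 4816 and 4195 TPM in DMSO and between 3641 and 4222 TPM in the treated libraries, with fold changes of -0.21, -0.23, -0.21 and -0.22. Only at 1 h did 1 treated library of RPS28 reach into the range of DMSO. RPL30 changed by -0.21, -0.18, -0.17 and -0.17 and RPL35 by -0.23, -0.18, -0.18 and -0.23. RPL35 was at 6823, 6955 and 5576 TPM in DMSO, and its treated libraries, between 5122 and 5941 TPM, overlapped DMSO replicate 3 at all times. Without DMSO replicate 1 or 2, RPL30 lost its call at all 4 times.

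Further genes at the ends of the range were called lower at 1 to 3 of the times. RPL39, a small protein of the exit tunnel, was lower by -0.26 at 1 h (adjusted p = 0.026) and -0.21 at 6 h (adjusted p = 0.025), and RPL32 by -0.18 at 1 h and -0.19 at 24 h. RPS21 was at -0.18, -0.22 and -0.22 at 3, 6 and 24 h (adjusted p = 0.046, 0.014 and 0.013). RPL23 was at -0.20, -0.17 and -0.24 at 1, 3 and 24 h (adjusted p = 0.030, 0.030 and 0.0023 by limma), and RPL34 at -0.24 at 24 h (adjusted p = 0.0082). With the replicate block RPL23 and RPL32 were called at 6 h as well. The low RPS10 was called at no time, with fold changes from -0.060 to 0.097.

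Of the stalk proteins, RPLP0 and RPLP1 were called at no time, with fold changes from -0.084 to -0.037 for RPLP0. RPLP1 had 14137 TPM ± 160 at 1 h, 14358 TPM ± 1125 at 3 h, 14311 TPM ± 301 at 6 h and 14480 TPM ± 301 at 24 h, against 14968 TPM ± 1190 in DMSO (SD, n = 3 each). RPLP2 was called lower at 3 h (-0.12, adjusted p = 0.041) and 6 h (-0.13, adjusted p = 0.025) by limma. RPSA, also known as a laminin receptor, was called lower at 3 h (-0.13, adjusted p = 0.038) and RPS27 at 1, 6 and 24 h (-0.21, -0.19 and -0.18).

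Genes best known for other roles of their proteins had small fold changes. RPL5 and RPL11, which with 5S RNA can bind and inhibit MDM2, had fold changes from -0.047 to -0.037 and from -0.11 to -0.073, called at no time. RPS6, the target of S6 kinase, was at 2586 TPM ± 98.0 in DMSO, and its fold changes ran from -0.040 to -0.00013. RPS14 and RPS19, tied to inherited or acquired anaemias, were called at no time. The same held for RPL41, the shortest of the proteins, and for RPS27A, made as a fusion with ubiquitin. RPL22 was called at no time against DMSO but rose by 0.18 from 6 to 24 h (adjusted p = 0.039 by limma).

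Because single libraries moved the whole set, each gene was also set against the summed level of the ribosomal protein genes in the same library. This scaling was added after the libraries were seen to differ, and it balances higher and lower calls by its construction. The median SE of a fold change was 0.030, against 0.059 on the deposited scale. Higher and lower calls numbered 7 and 7 at 1 h, 9 and 8 at 3 h, 11 and 8 at 6 h and 18 and 17 at 24 h, against 18.3%, 44.6%, 64.2% and 69.6% of all genes called on that scale. From 6 to 24 h 13 were higher and 9 lower, against 57.5% of all genes.

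RPL13A, RPL10 and RPL3 were also lower within the set. Per 1000 TPM of the set, RPL13A held 1.04, 0.993 and 1.07 in DMSO and 0.838, 0.853 and 0.843 at 3 h (-0.29, adjusted p = 4.4e-05 by limma). RPL10 held 8.99, 8.96 and 9.20 in DMSO, 9.21, 9.30 and 9.48 at 6 h and 7.93, 7.83 and 7.89 at 24 h (-0.20 against DMSO, adjusted p = 7.4e-06, and -0.24 against 6 h, adjusted p = 9.0e-07). RPL3 held 16.0, 15.5 and 17.0 in DMSO and 13.9, 14.04 and 14.4 at 6 h (-0.20, adjusted p = 0.00014), and was also called at 3 h (-0.11, adjusted p = 0.015). RPL13A at 3 h, RPL10 at 24 h and RPL3 at 6 h did not overlap DMSO on this scale.

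Other genes gained share. RPL12, chosen after its values were seen, held 10.6, 10.7 and 10.7 per 1000 in DMSO, 11.6, 11.8 and 12.2 at 1 h and 11.98, 11.997 and 12.1 at 24 h. Its fold changes on this scale were 0.15, 0.14, 0.063 and 0.17 and were called at all 4 times. RPS2, which lies near the entry of the messenger RNA channel and was chosen in the same way, was called higher at all 4 times (0.13, 0.14, 0.14 and 0.17). RPL17 and RPL8, the latter also chosen after its values were seen, were higher at all 4 times too. On this scale RPL12 and RPL17 lay above DMSO at all 4 times. RPS2 overlapped DMSO at 3 h, and RPL8 overlapped it at 1, 3 and 24 h. RPL30 and RPS28 were lower at all 4 times on this scale, by -0.11, -0.092, -0.083 and -0.081 for RPL30 and -0.11, -0.15, -0.12 and -0.12 for RPS28. RPS6 was higher at 6 h (0.090) and 24 h (0.062), and RPLP1 at 24 h (0.048), all called by limma.

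**Figure D5:**
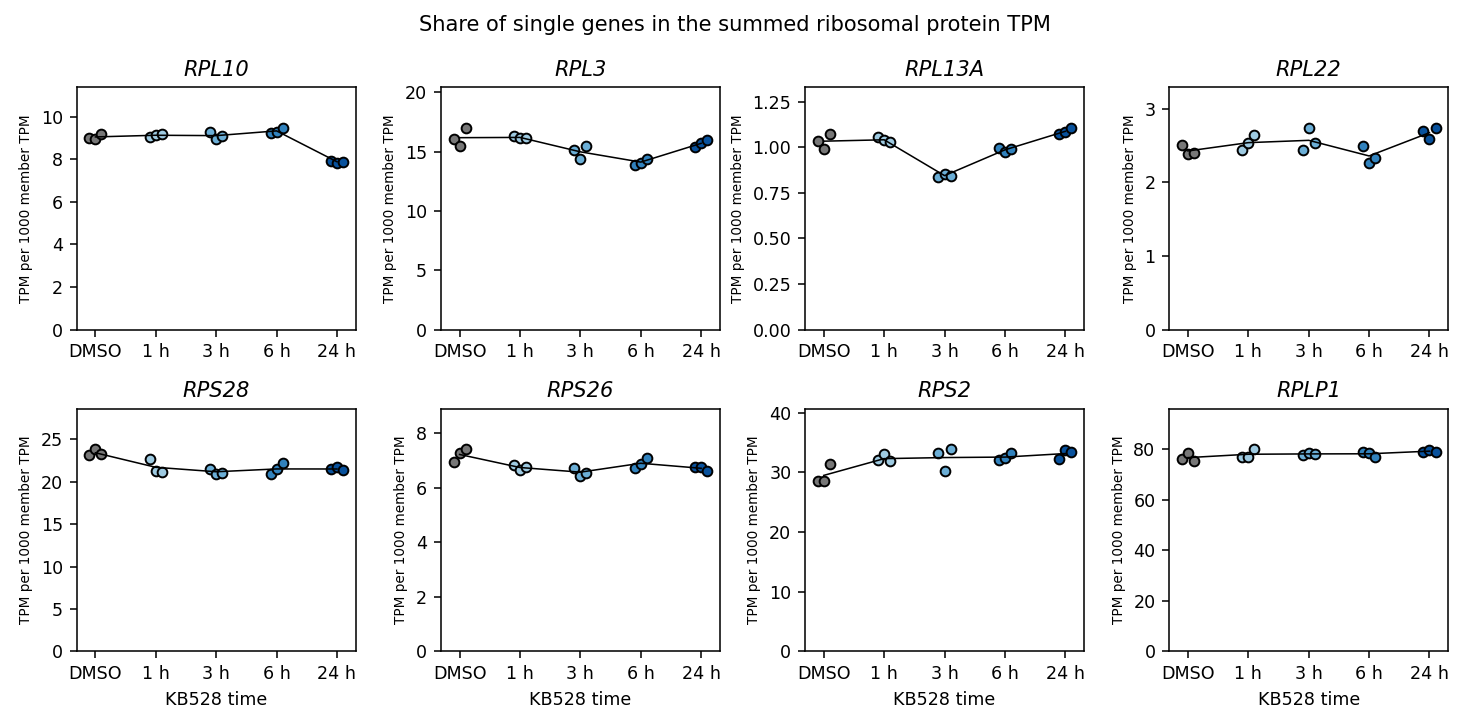
TPM of 8 single genes per 1000 TPM of the summed ribosomal protein genes, by group; points are libraries and the line joins group means. RPL13A dips at 3 h (0.838 to 0.853), RPL10 drops at 24 h (7.83 to 7.93) and RPL3 is lowest at 6 h (13.9 to 14.4), while RPLP1 stays between 75.4 and 80.0 in all libraries.

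Paralogs and fusion genes outside the rule behaved differently from one another. FAU, which encodes a ubiquitin-like protein fused to RPS30, was lower at all 4 times (-0.19, -0.17, -0.16 and -0.27). RPS27L, a paralog of RPS27, had 70.7 TPM ± 5.99 in DMSO against 99.1 TPM ± 2.65 (SD, n = 3 each) at 24 h, with fold changes of 0.26, 0.37, 0.46 and 0.48, all called. RPL22L1 was higher at 3 h (0.54) and 6 h (0.53), and RPL7L1 at 3 h (0.14) and 6 h (0.33). RPL39L was higher at 24 h (0.58, adjusted p = 8.9e-06 by limma). RPL26L1 was called at no time, and RPL3L and RPL10L were below the filter. Of the 8 tested, 1, 3, 3 and 2 were higher and 2, 2, 2 and 3 lower at the 4 times. To read this and the lists that follow, 1802 of all 12002 genes were called higher at 1 h and 24.9%, 44.4% and 56.1% at 3, 6 and 24 h, while 7.57%, 32.0%, 24.5% and 15.2% were called lower.

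Mitochondrial ribosomal protein genes, which encode the separate ribosome of mitochondria, had fold changes with an interquartile range of 0.14, 0.27, 0.32 and 0.28 at 1, 3, 6 and 24 h. Of 77 tested, 3, 20, 35 and 9 were higher and 10, 9, 12 and 35 lower at 1, 3, 6 and 24 h, with medians of -0.059, 0.020, 0.10 and -0.083. The 35 lower at 24 h were 45.5% of the list, against 15.2% of all genes. Their summed TPM at 24 h, 8739 ± 111, lay below that of DMSO, 9603 ± 405, in all 3 libraries (SD, n = 3 each).

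Genes that act on ribosomal protein genes or on ribosome production included some with larger changes. MYC, among 10 factors that bind ribosomal protein promoters, was at 808 TPM ± 71.5 in DMSO and 660.4 ± 6.61, 267 ± 14.6, 235 ± 14.5 and 315 ± 4.09 after 1, 3, 6 and 24 h (SD, n = 3 each), with log2 fold changes of -0.29, -1.59, -1.77 and -1.35. Of those factors 0, 5, 7 and 7 were higher at the 4 times and 1, 2, 1 and 1 lower. GABPB1 was higher at 3, 6 and 24 h (0.63, 0.36 and 0.35) and SP3 at the same times (0.32, 0.59 and 0.39).

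Of 16 regulators of TOP translation and mTORC1, 3, 4, 11 and 9 were higher and 1, 3, 2 and 2 lower. The 9 higher at 24 h were 56.3% of the list, near the 56.1% of all genes. DEPTOR, an inhibitor bound to mTOR, was at 182 TPM ± 11.9 in DMSO and 34.7 ± 1.14 at 6 h (SD, n = 3; -2.36, adjusted p = 2.9e-14 by limma). DDIT4, another inhibitor of mTORC1, fell by 1.65 at 1 h and was higher by 0.69 at 6 h. Of 20 translation factors with TOP transcripts, 3, 4, 4 and 4 were higher and 0, 4, 5 and 5 lower. In that list EIF4A2 was higher at all 4 times (0.33, 0.51, 0.35 and 0.20), RSL1D1 was higher until 6 h and lower at 24 h (-0.19), and the nucleolar chaperone NPM1 was lower at 24 h (-0.53).

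Of 25 genes for RNA polymerases I and III, which make ribosomal and transfer RNA, 5, 9, 15 and 5 were higher and 1, 3, 4 and 5 lower. The 5 higher at 24 h were 20% of the list, against 56.1% of all genes. RRN3, an initiation factor of polymerase I, was higher at 1, 3 and 6 h (0.37, 0.68 and 0.59), and POLR3B at 3 and 6 h (0.17 and 0.55). CD3EAP was lower at 24 h (-0.69) and GTF3C1 was higher (0.69). Of 8 dedicated chaperones of ribosomal proteins, 2, 4, 4 and 1 were higher and 1, 2, 1 and 2 lower. GRWD1, which escorts RPL3, was higher at 1, 3 and 6 h (0.22, 0.55 and 0.52) and lower at 24 h (-0.22). TSR2, which escorts RPS26, was higher at 3, 6 and 24 h (0.27, 0.47 and 0.14), and BCCIP was lower at 24 h (-0.14).

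Of 11 genes of the 5S particle and MDM2 axis, 4, 6, 3 and 3 were higher and 1, 1, 1 and 3 lower. MDM2 had 10.6 TPM ± 0.873 in DMSO against 65.1 TPM ± 1.37 (SD, n = 3 each) at 1 h (2.51, adjusted p = 8.0e-14 by limma), and stayed higher at 3, 6 and 24 h (0.81, 0.35 and 0.36). CDKN1A rose by 3.05 at 1 h and was lower by 0.91 at 6 h and by 1.92 at 24 h on the log2 scale. RPL5 and RPL11 belong to this list as well.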

How the data were processed

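Strand-specific messenger RNA libraries were sequenced, per the labels' protocols. The build hg19 and the tools FastQC, MultiQC, STAR and featureCounts are listed, without roles or versions, in the submitters' processing notes. The deposited file is a TPM table by the authors of 26456 rows, including 92 ERCC spike-ins, in which every library adds up to 1000000. TPM keeps no depth, so counting error could not be computed. Columns named untreated at 0 h were taken as DMSO from the hour and replicate in their names, and 0 columns were unused.

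The test, across all genes, was limma (3.58.1, R 4.3.3) on log2(TPM + 1) (5 groups in 1 fit, variance trend, Benjamini-Hochberg adjustment per comparison, threshold 0.05). A fold change on this scale understates changes of low genes. Replicates correlated across genes with r from 0.995 to 0.998, and 0 pairs of libraries were identical. Deviations from the group means correlated over 0.1 in all 3 same-numbered pairs only between DMSO and 6 h (r = 0.14, 0.15 and 0.15). Libraries of unlike number reached r = 0.22, between DMSO and 3 h. The pattern is therefore weak and does not establish a pairing at 6 h or exclude one elsewhere. The labels state no pairing. The test was tested on simulated data. Transcript lengths came from GENCODE and start windows from RefSeq (GRCh38.p14). The length taken was that of the longest protein-coding transcript of a gene, or else of its longest transcript. It reached 7686 bases for RPL37 and 7062 for RPS29. Whether these are the transcripts expressed here was not tested, which limits the length correction. Tables and figures were made with Python 3.11.15.

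The members, lists, tests and rule for named genes were chosen with earlier results of these data known. Named were 16 well-known members, the 3 largest called changes in each direction per time without overlap, the 3 highest and 3 lowest in level, the 2 farthest above and below the members' median per time, all paralogs, and the 2 lowest adjusted p at 6 and 24 h in each other list. Alternatives tried were another pseudocount (0.1), a stricter filter (5 TPM) or none, 5 other scalings, a length correction, no variance trend, only the compared groups, the replicate block and each library left out. Some genes of the set and of the other lists are counted but not reported here by name.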

Additional observations from a re-analysis of the deposited data

Results flagged for a closer look

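Effects at 2 consecutive times differed by limma's test of the difference between those times (adjusted p under 0.05 over all genes) for 7 ribosomal protein genes. The differences are log2 values, later minus earlier time. RPL13A changed by -0.28 from 1 to 3 h, by 0.22 from 3 to 6 h and by 0.14 from 6 to 24 h. RPL36A changed by -0.68, RPL10A by -0.15 and RPL28 by 0.12 from 3 to 6 h. RPL10 changed by -0.25, RPL22 by 0.18 and RPL3 by 0.15 from 6 to 24 h. With 3 libraries per group, single libraries were not tested as outliers.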

How the results depend on the processing

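The number of ribosomal protein genes called against DMSO changed by more than 1.5 times under many alternatives. With no filter, 2, 9 and 6 were called at 1, 3 and 6 h and 5 over the time course. With median-ratio scaling 8, 65 and 64 were called at 3, 6 and 24 h, 15 from 3 to 6 h, 2 from 6 to 24 h and 61 over the time course, with medians of -0.25 and -0.26 and summed log2 ratios of -0.26 and -0.29 at 6 and 24 h. With spike-in scaling 1, 2, 0 and 0 were called at the 4 times, 0, 16 and 0 between consecutive times and 2 over the time course, the median was -0.30 and the summed ratio -0.31 at 3 h, and at 6 h both turned to 0.11. With spike-ins out of the total 17 and 33 were called at 1 and 6 h, 7 from 3 to 6 h, 8 from 6 to 24 h and 29 over the time course. With the members out of the total 8 and 39 were called at 3 and 6 h, 7 from 3 to 6 h and 26 over the time course. Scaled to the summed members, 35 were called at 24 h, 2 from 1 to 3 h, 22 from 6 to 24 h and 35 over the time course. With length correction 32 and 61 were called at 6 and 24 h (median -0.18 at 24 h), 3, 11 and 39 between consecutive times and 64 over the time course. With no variance trend 2 were called from 3 to 6 h and 9 over the time course. With only the compared groups 4 and 7 were called at 1 and 3 h, and 2, 2 and 20 between consecutive times.

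Whether replicate numbers pair the libraries was not settled. Over all group pairs, deviations of same-numbered libraries correlated with r from -0.16 to 0.43, 7 of 30 over 0.1. Of 15 libraries, 8 correlated best with their own number. With the replicate block 21, 26, 21 and 24 were called at the 4 times, 2 from 1 to 3 h and 28 over the time course. With each library left out in turn, 1 to 43, 7 to 47, 4 to 42 and 11 to 42 were called at 1, 3, 6 and 24 h, 1 to 2, 2 to 4 and 2 to 3 between consecutive times and 6 to 42 over the time course. Medians then ran from -0.16 to -0.067, -0.14 to -0.038, -0.15 to -0.052 and -0.14 to -0.047, and summed log2 ratios from -0.16 to -0.078, -0.15 to -0.045, -0.15 to -0.064 and -0.15 to -0.066. A lone remaining pair of libraries shares the spread of the other groups.

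Signs turned for single results. Spike-in scaling gave, at 6 h, FAU 0.030, RPL13A 0.032, RPL30 0.016, RPL35 0.0058, RPLP2 0.057, RPS26 0.033 and RPS27 0.0027, and at 3 h POLR3B -0.035, RPL17 -0.015 and RPL7L1 -0.080. Length correction at 24 h gave POLR3B -0.19, RPL7L1 -0.20, RRN3 -0.20 and a 60S minus 40S difference of -0.028. Median-ratio scaling at 24 h gave RPL7L1 -0.11, RRN3 -0.14 and TSR2 -0.049. Scaled to the summed members, RPLP0 was 0.053, RPS19 0.067 and RPS6 0.090 at 6 h, and RPLP1 0.048, RPS19 0.057 and RPS6 0.062 at 24 h. The cause of these changes was not tested. TPM gives no depth, so the precision of low genes such as RPL36A is unknown.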
